A study of Mus musculus with 12 samples.

Results

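This section describes 10 mouse genes of the TGF-beta and activin pathway: the ligand genes Tgfb1, Tgfb2 and Tgfb3, the activin subunit gene Inhba, the activin antagonist gene Fst, the receptor genes Tgfbr1, Tgfbr2 and Tgfbr3, and the target genes Tgfbi and Pmepa1. They were taken as every array probe whose gene symbol in the platform annotation was 1 of these names, which gave 10 of 19057 named genes and 19 of 45281 probes. Of the 19 probes, 16 were among the 20445 bright enough to be tested, and each of the 10 genes had at least 1 of them, out of 11018 genes with a tested probe. They were read on 12 Illumina bead arrays, each loaded with RNA of primary cardiac fibroblasts from female C57/BL6 mice aged 10 to 16 weeks. 4 arrays (titled 5 to 8) held RNA of cells given 200 nmol/L CCN2 for 48 h, 4 (titled 9 to 12) of cells given 500 nmol/L GDF15 for 48 h and 4 (titled 1 to 4) of untreated control cells. CCN2 (connective tissue growth factor) is a matricellular protein that cells secrete, and GDF15 is a cytokine of the wider TGF-beta superfamily. All groups were grown in a medium with 10% fetal calf serum, and the control labels give no time of their own. Nothing in the labels tells separate cultures or animals apart within a group, so each p-value measures only array-to-array spread, which may be technical.

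TGF-beta is secreted in a latent form and, once freed, binds the receptor TGFBR2, which recruits and activates TGFBR1. TGFBR1 then phosphorylates the transcription factors SMAD2 and SMAD3. TGFBR3, or betaglycan, is a co-receptor that presents TGF-beta, above all TGF-beta 2, to TGFBR2. Activin A, a dimer of the subunit encoded by Inhba, uses its own receptors but the same SMAD proteins, and follistatin, encoded by Fst, binds activin and keeps it from its receptors. In cardiac fibroblasts this pathway is known for driving the change to contractile, matrix-producing myofibroblasts.

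The start regions of the 3 members that moved most after CCN2, among those with an annotated one, are shown so that they can be read for a few known motifs. Of these motifs, the SMAD-binding box is the 1 named for the SMAD proteins of this pathway. Each is 300 bases, from 250 before to 50 after a RefSeq transcript start on GRCm38.p6, written along the gene's own strand. Capitals mark each match, on either strand, to 1 of 6 motifs. These are the TATA box TATAAA, the E-box CACGTG, the short SMAD-binding box CAGAC, the AP-1 motif TGANTCA, the cyclic AMP response element TGACGTCA and the NF-kB consensus.
Inhba, chr13:16011601-16011900, plus strand: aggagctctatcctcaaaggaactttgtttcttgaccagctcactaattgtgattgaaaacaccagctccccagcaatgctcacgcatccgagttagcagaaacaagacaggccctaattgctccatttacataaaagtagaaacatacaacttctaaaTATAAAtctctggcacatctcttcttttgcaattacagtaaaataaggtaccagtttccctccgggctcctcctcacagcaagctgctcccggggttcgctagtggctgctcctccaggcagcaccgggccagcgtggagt
Tgfb2, chr1:186705940-186706239, minus strand: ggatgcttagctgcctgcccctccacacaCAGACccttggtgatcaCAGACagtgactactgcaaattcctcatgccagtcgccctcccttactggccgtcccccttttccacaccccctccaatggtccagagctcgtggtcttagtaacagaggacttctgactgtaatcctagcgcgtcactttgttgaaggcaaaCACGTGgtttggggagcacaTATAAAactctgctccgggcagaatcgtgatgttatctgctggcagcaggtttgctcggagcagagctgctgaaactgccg
Tgfbi, chr13:56609336-56609635, plus strand: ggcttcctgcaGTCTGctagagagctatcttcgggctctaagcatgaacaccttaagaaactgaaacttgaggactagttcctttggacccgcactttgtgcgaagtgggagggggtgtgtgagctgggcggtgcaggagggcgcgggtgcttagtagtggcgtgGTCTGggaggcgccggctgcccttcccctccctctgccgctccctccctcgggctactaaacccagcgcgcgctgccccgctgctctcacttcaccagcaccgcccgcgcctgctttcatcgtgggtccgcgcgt
The Inhba window held 1 TATAAA, 91 bases before the start, and no match to the other 5 motifs. The Tgfb2 window held TATAAA 31 bases and CACGTG 51 bases before the start, and CAGAC at 221 and 204 bases before it. The Tgfbi window held CAGAC only, at 239 and 85 bases before the start, both on the opposite strand. Of all 32851 windows in the RefSeq promoter table, 49.6% held the SMAD box, 13.6% the TATA box, 7.15% the E-box, 7.81% the AP-1 motif, 1.79% the cyclic AMP response element and 4.51% the NF-kB consensus. A match is a description of the letters and not a binding site. Tgfb1, Tgfbr1 and Tgfbr2 also had entries in that table (6 of the 10 members in all), while Tgfb3, Tgfbr3, Fst and Pmepa1 had none.

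Array brightness limits how small a change could be seen. The 75th percentile of the deposited signal was 76.4 to 79.1 on the CCN2 arrays, 76.9 to 96.2 on the GDF15 arrays and 82.5 to 94.4 on the control arrays, in arbitrary units. The deposited signals quoted below are not background-subtracted or scaled between arrays, and log2 differences and their standard errors (SE) come from background-corrected, quantile-normalized log2 values fitted with limma across all 20445 tested probes. That normalization adds an offset of 16, which shrinks the changes of dim probes. A gene was called changed at a Benjamini-Hochberg adjusted p under 0.05 over all tested probes, and a gene with several probes stands by its brightest tested probe. Normalized values of the tested probes correlated at 0.992 to 0.994 between CCN2 arrays, at 0.987 to 0.994 between GDF15 arrays and at 0.994 to 0.996 between control arrays. CCN2 against control and GDF15 against control share the same 4 control arrays.

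Marker genes of fibroblasts and of other cell types differed between these arrays. Their counts are to be read beside those of all 11018 genes. Of these, 30.2% fell and 25.7% rose after CCN2, and 12.7% fell and 9.76% rose after GDF15. All 10 fibroblast markers were detected, and 5 of them fell after CCN2 and 3 after GDF15. After CCN2 these were Tcf21 (-2.69), Dpt (-2.31), Lum (-2.02), Thy1 (-1.55) and Col3a1 (-0.40), while 5 others, among them Col1a1 and Pdgfra, did not pass. After GDF15 they were Dpt (-1.30), Lum (-0.89) and Thy1 (-0.62). The summed normalized signal of the 10 was 38425 to 41306 on the CCN2 arrays, 44454 to 54744 on the GDF15 arrays and 49152 to 52445 on the control arrays. Of 11 tested macrophage markers 10 fell after CCN2 and 7 after GDF15, and their summed normalized signal was 9984 to 11087 on the CCN2 arrays, 27759 to 29985 on the GDF15 arrays and 32262 to 35905 on the control arrays. Lyz2 was the largest part of that sum in every group. Adgre1 fell after neither treatment, with log2 differences of 0.24 after CCN2 (SE 0.10, adjusted p = 0.0583) and 0.28 after GDF15 (SE 0.10, adjusted p = 0.0726). All 9 tested endothelial markers fell after CCN2 and 1 after GDF15 (sums of 2382 to 2579, 3629 to 4477 and 4250.4 to 4607 on the CCN2, GDF15 and control arrays). Of 9 tested pericyte and smooth muscle markers 8 fell after CCN2 and 5 after GDF15 (643 to 721, 1095 to 1288 and 1533 to 1652), with Cnn1 detected on no array. Of 6 epicardial and mesothelial markers 4 rose and 2 fell after CCN2, and 2 rose after GDF15 (1503 to 1644, 625 to 777 and 431 to 466). Most of this sum on the CCN2 arrays came from Aldh1a2, whose mean log2 signal was 10.4 there and 7.81 on the control arrays. The higher sum therefore does not describe the whole set, in which Upk3b (-1.34) and Upk1b (-1.13) were the 2 that fell. Krt19, 1 of the 4 that rose, was detected on the 4 CCN2 arrays and on no other. It was tested only through the group where it was high, so its rise carries no support. With median scaling 3 of the 6 rose and 2 fell after CCN2. Of 4 tested cardiomyocyte markers 3 fell after CCN2 and none passed after GDF15 (156 to 223, 317 to 391 and 375 to 467), with Ryr2 detected on no array. Of 2 tested lymphocyte markers 1 fell after each treatment (37.9 to 40.9, 41.1 to 54.2 and 48.3 to 61.1), with Nkg7 and Cd2 detected on no array. The 1 that fell was Cd79b, detected on 0 CCN2, 1 GDF15 and 4 control arrays. It met the detection filter only through the control arrays, where it was highest, so its falls carry no support. In these bulk samples fewer cells of a type and less RNA per cell cannot be told apart, and the part of other cell types in the members' differences was not tested.

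CCN2 against control compared arrays of cells given the CCN2 preparation with arrays of untreated cells. Of the 10 members, 7 were lower, 2 were higher and 1 missed the threshold. The background was large: 55.9% of the 11018 genes changed, 30.2% downward and 25.7% upward. The CCN2 and control arrays did not overlap for 9 of the 10 members, against 54% of all genes, and 5 of the 10 passed 2-fold, against 14.1%. The members and the other lists were chosen with earlier results of these data known. Their counts beside those of all genes, here and below, are therefore a description and no test. The median log2 difference of the members was -0.83, against -0.02 over all genes. The members that moved did not run in 1 direction by role: the ligand gene Inhba and the co-receptor gene Tgfbr3 were higher, and Tgfb2, Tgfb3, Fst, Tgfbr1, Tgfbr2, Tgfbi and Pmepa1 were lower.

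GDF15 against control made the same comparison for the GDF15 preparation. Of the 10 members, 3 were lower (Tgfb3, Fst and Tgfbr1), 2 were higher (Inhba and Tgfb2) and 5 missed the threshold, against 22.4% of genes changed, 12.7% downward and 9.76% upward. The GDF15 and control arrays did not overlap for 3 members (Inhba, Tgfb2 and Tgfbr1), against 25.8% of all genes, and Inhba alone passed 2-fold, which 2.59% of all genes did. The median log2 difference of the members was -0.10, against -0.02 over all genes. Only 2 of the 5 calls, Inhba and Fst, held under every alternative analysis that was run, and the limits of the other 3 are given beside their values.

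**Figure D1:**
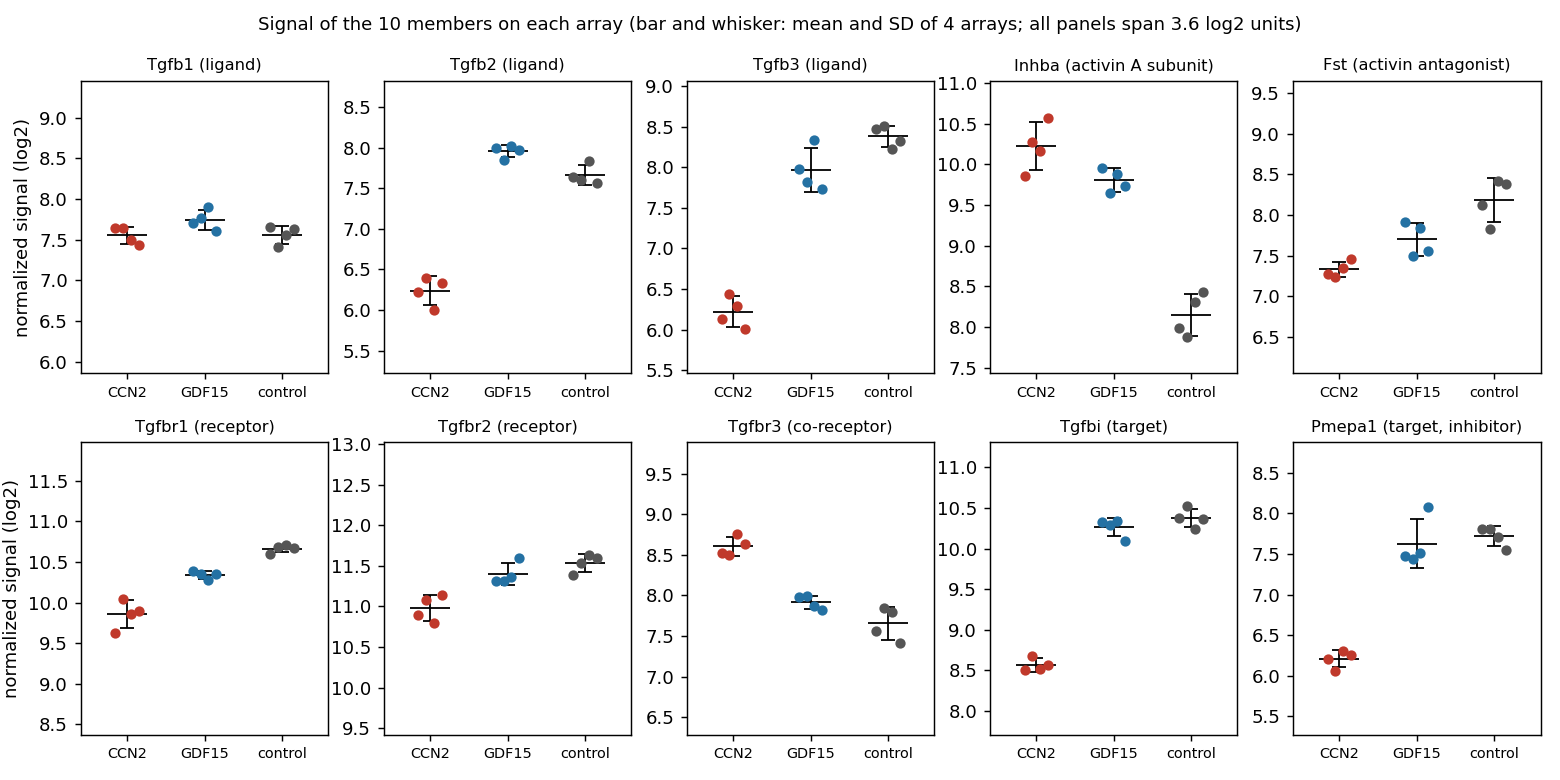
Normalized log2 signal of the brightest tested probe of each of the 10 members on each of the 12 arrays, with 4 points per group, the mean as a bar and the SD as whiskers. Every panel spans the same height on the log2 axis, but the panels start at different values. The CCN2 arrays lie apart from the control arrays in every panel but that of Tgfb1.

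The member with the largest rise was Inhba, which encodes the beta A subunit of activin A. Its deposited signal was 913, 1041, 1125 and 1420.1 on the CCN2 arrays, 911, 887, 1014 and 1009 on the GDF15 arrays and 276, 290, 371 and 396 on the control arrays. Every treated array was above every control array, and the CCN2 and GDF15 arrays overlapped. Inhba was 4.20-fold higher after CCN2 (log2 difference 2.07, SE 0.14, adjusted p = 2.08e-09) and 3.15-fold higher after GDF15 (1.66, SE 0.14, adjusted p = 2.61e-07). Over 18 alternative analyses the log2 difference stayed between 1.86 and 2.19 for CCN2 and between 1.54 and 1.75 for GDF15.

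Set directly against each other, the GDF15 cells had less Inhba than the CCN2 cells by a small margin. The log2 difference of GDF15 against CCN2 was -0.42 (SE 0.14, adjusted p = 0.0290). This call was lost with median scaling between arrays (adjusted p = 0.125), with no detection filter (0.0947), and when CCN2 array 6 or 8 or GDF15 array 10 or 12 was left out (0.0634, 0.106, 0.0824 and 0.0612). The doses of the 2 proteins differed, so this comparison is of the preparations as used.

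Fst, which encodes the activin-binding antagonist follistatin, moved the other way. Its signal was 163, 146, 169.9 and 176 on the CCN2 arrays, 235, 212, 258 and 244 on the GDF15 arrays and 299.6, 282, 395 and 387 on the control arrays. After normalization all CCN2 arrays lay below all control arrays, whereas GDF15 arrays 9 and 11 overlapped the lowest control array. Fst was lower by 1.81-fold after CCN2 (log2 difference -0.86, SE 0.13, adjusted p = 2.27e-05) and by 1.40-fold after GDF15 (-0.49, SE 0.13, adjusted p = 0.0112). Both calls held in the 18 alternatives of each comparison, with adjusted p up to 0.000300 for CCN2 and 0.0439 for GDF15. GDF15 against CCN2 was at 0.37 (SE 0.13, adjusted p = 0.0282) and at 0.56 with median scaling (adjusted p = 0.00111), but did not pass without a detection filter (0.0792) or when CCN2 array 5 or 6 or GDF15 array 9 or 11 was left out (0.0631, 0.0693, 0.0890 and 0.0783).

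Inhba and Fst can also be read as a difference within each array, in which a shift of all log2 values of an array cancels. The pair was chosen after its values were seen, so this is a description with no test, and since the probes are different only the shift between groups can be read. Inhba minus Fst was 2.58 to 3.12 (mean 2.89 ± 0.24, SD, n = 4) on the CCN2 arrays, 2.05 to 2.18 (2.11 ± 0.07) on the GDF15 arrays and -0.14 to 0.05 (-0.04 ± 0.09) on the control arrays, on the log2 scale. The 3 groups did not overlap. Relative to control, the activin subunit transcript thus gained on the antagonist transcript by 7.62-fold after CCN2 and by 4.42-fold after GDF15.

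**Figure D2:**
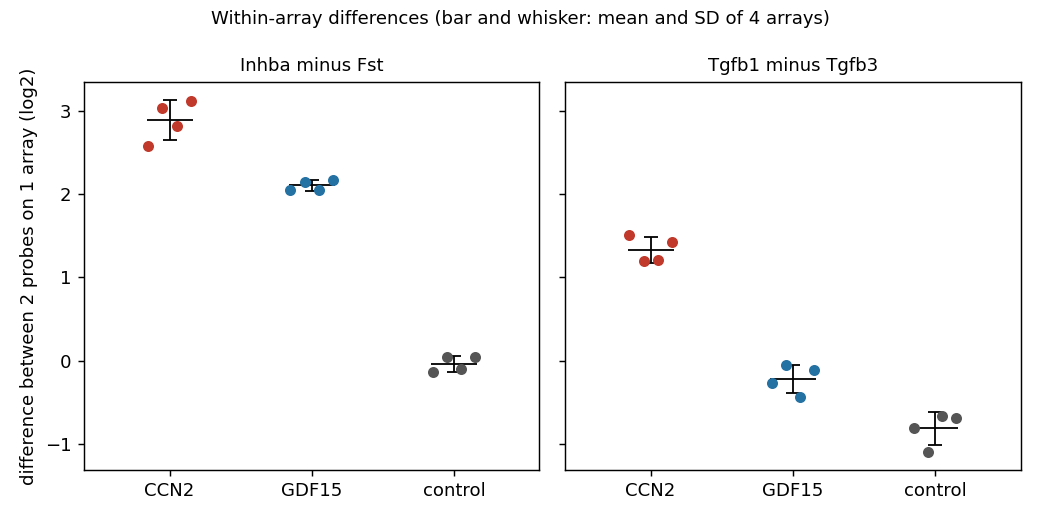
Differences between the normalized log2 signals of 2 probes on the same array, for Inhba minus Fst (left) and Tgfb1 minus Tgfb3 (right), with 1 point per array, the mean of 4 arrays as a bar and the SD as whiskers. The value of 0 has no meaning of its own because the probes differ. In each pair the CCN2 arrays are highest, the GDF15 arrays lie between, and the control arrays are lowest.

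Among the TGF-beta ligand genes, Tgfb3 had the largest fall. It encodes TGF-beta 3, and its signal was 86.0, 94.7, 90.9 and 78.5 on the CCN2 arrays, 245, 264, 358 and 271 on the GDF15 arrays and 375, 433, 348 and 370.3 on the control arrays. The CCN2 arrays were all far below the control arrays, and 1 GDF15 array, number 11, overlapped the control arrays. Tgfb3 was 4.46-fold lower after CCN2 (log2 difference -2.16, SE 0.13, adjusted p = 2.38e-10).

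After GDF15, Tgfb3 was at -0.41 (SE 0.13, adjusted p = 0.0312), a weak call. It was lost with no detection filter (adjusted p = 0.0891) and when control array 1, 2 or 4 or GDF15 array 9, 10 or 12 was left out (0.0856, 0.0946, 0.0509, 0.0526, 0.0916 and 0.0896). GDF15 against CCN2 was at 1.75 (SE 0.13, adjusted p = 6.62e-09).

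Tgfb2 encodes TGF-beta 2, the ligand that depends most on betaglycan. Its signal was 89.7, 92.4, 79.1 and 92.3 on the CCN2 arrays, 248, 269, 290.1 and 318 on the GDF15 arrays and 222, 244, 274 and 234 on the control arrays. The CCN2 arrays were the lowest without overlap, and the normalized GDF15 values lay just above those of all control arrays. Tgfb2 was 2.68-fold lower after CCN2 (log2 difference -1.42, SE 0.10, adjusted p = 1.65e-09), and GDF15 against CCN2 was at 1.72 (SE 0.10, adjusted p = 2.37e-10).

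The rise of Tgfb2 after GDF15 was 0.30 on the log2 scale (SE 0.10, adjusted p = 0.0403). It did not pass with median scaling (0.22, adjusted p = 0.179) or with no detection filter (adjusted p = 0.0582), nor when control array 1, 2 or 4 or GDF15 array 9, 11 or 12 was left out (0.0897, 0.104, 0.110, 0.0861, 0.0897 and 0.0642).

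Tgfb1, which encodes the most widely expressed TGF-beta, was the 1 ligand gene that passed no threshold in any of the 3 comparisons. Its signal was 204, 184, 186 and 173 on the CCN2 arrays, 205, 254, 268 and 252 on the GDF15 arrays and 224, 217, 229 and 243 on the control arrays, and the normalized values of the groups overlapped. The log2 difference was -0.01 after CCN2 (95% interval -0.20 to 0.18, adjusted p = 0.936) and 0.18 after GDF15 (-0.01 to 0.38, adjusted p = 0.188). Whether Tgfb1 passed depended on the scaling. With each array scaled to a common median it was at -0.29 after CCN2 (adjusted p = 0.0274) and at 0.38 for GDF15 against CCN2 (adjusted p = 0.00609), while the median of all tested probes was at -0.17 and 0.12 in these comparisons. Tgfb1 minus Tgfb3 within an array, again a description, was 1.20 to 1.51 on the CCN2 arrays, -0.44 to -0.06 on the GDF15 arrays and -1.10 to -0.67 on the control arrays, a gain of Tgfb1 over Tgfb3 of 4.43-fold after CCN2.

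Tgfbr1 encodes the signalling kinase of the receptor pair. Its signal was 762, 887, 899 and 889.7 on the CCN2 arrays, 1209.6, 1432, 1319 and 1557 on the GDF15 arrays and 1516, 1788, 1775 and 1710.2 on the control arrays. After normalization the 3 groups did not overlap, with the CCN2 arrays lowest. Tgfbr1 was 1.75-fold lower after CCN2 (log2 difference -0.81, SE 0.089, adjusted p = 7.16e-07), and GDF15 against CCN2 was at 0.48 (SE 0.089, adjusted p = 0.000300).

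The call of Tgfbr1 after GDF15 rested on its brightest probe. That probe was at -0.32 (SE 0.089, adjusted p = 0.0156), the other tested Tgfbr1 probe was at -0.02 (SE 0.18, adjusted p = 0.949), and the mean of both missed the threshold (-0.17, adjusted p = 0.328). The dimmer probe was also lower after CCN2 (-0.61, SE 0.18, adjusted p = 0.00984). Its normalized log2 signal was higher on the even-numbered than on the odd-numbered arrays within every group: 6.84 and 6.78 against 6.28 and 6.25 for CCN2, 7.30 and 7.60 against 6.74 and 6.85 for GDF15, and 7.35 and 7.30 against 6.88 and 7.07 for control. The labels name nothing that separates even from odd arrays.

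Tgfbr2, which encodes the ligand-binding kinase, had signals of 1885, 1814, 1744 and 2088 on the CCN2 arrays, 2281, 2793, 2792 and 3642 on the GDF15 arrays and 2608, 3159, 3219 and 3163 on the control arrays. The CCN2 arrays lay below all others, and the GDF15 and control arrays overlapped. The log2 difference was -0.56 after CCN2 (SE 0.10, adjusted p = 0.000155) and -0.14 after GDF15 (95% interval -0.35 to 0.07, adjusted p = 0.371). A dimmer Tgfbr2 probe was lower after CCN2 (-0.42, SE 0.12, adjusted p = 0.00922) and after GDF15 (-0.39, SE 0.12, adjusted p = 0.0346), and a probe detected on 2 CCN2, 1 GDF15 and 1 control array was at 0.14 (SE 0.11) and -0.02 (SE 0.11). The mean of the tested Tgfbr2 probes was at -0.28 after CCN2 (adjusted p = 0.00403), a smaller fall than that of the brightest probe, and the probes disagreed on GDF15. GDF15 against CCN2 was at 0.42 for the brightest probe (SE 0.10, adjusted p = 0.00279) and at 0.10 for the mean of the tested probes (adjusted p = 0.300).

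The co-receptor gene Tgfbr3, which encodes betaglycan, went against the signalling receptors. Its signal was 358, 311, 421 and 370.1 on the CCN2 arrays, 244, 296, 264 and 288 on the GDF15 arrays and 212, 285, 265 and 212 on the control arrays. Every CCN2 array was above every other array. Tgfbr3 was 1.93-fold higher after CCN2 (log2 difference 0.95, SE 0.10, adjusted p = 5.87e-07), and a dimmer probe of the gene was higher too (0.76, SE 0.16, adjusted p = 0.000565).

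After GDF15 the Tgfbr3 probes pointed opposite ways without passing, at 0.26 (SE 0.10, adjusted p = 0.0891) and -0.20 (SE 0.16, adjusted p = 0.441), with their mean at 0.03 (adjusted p = 0.851). GDF15 against CCN2 was at -0.69 (SE 0.10, adjusted p = 3.77e-05) for the brighter probe and at -0.95 (SE 0.16, adjusted p = 9.16e-05) for the dimmer one. Of the remaining 3 Tgfbr1 and Tgfbr2 probes, none was tested: 1 was detected on 2 control arrays only and 2 on no array.

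**Figure D3:**
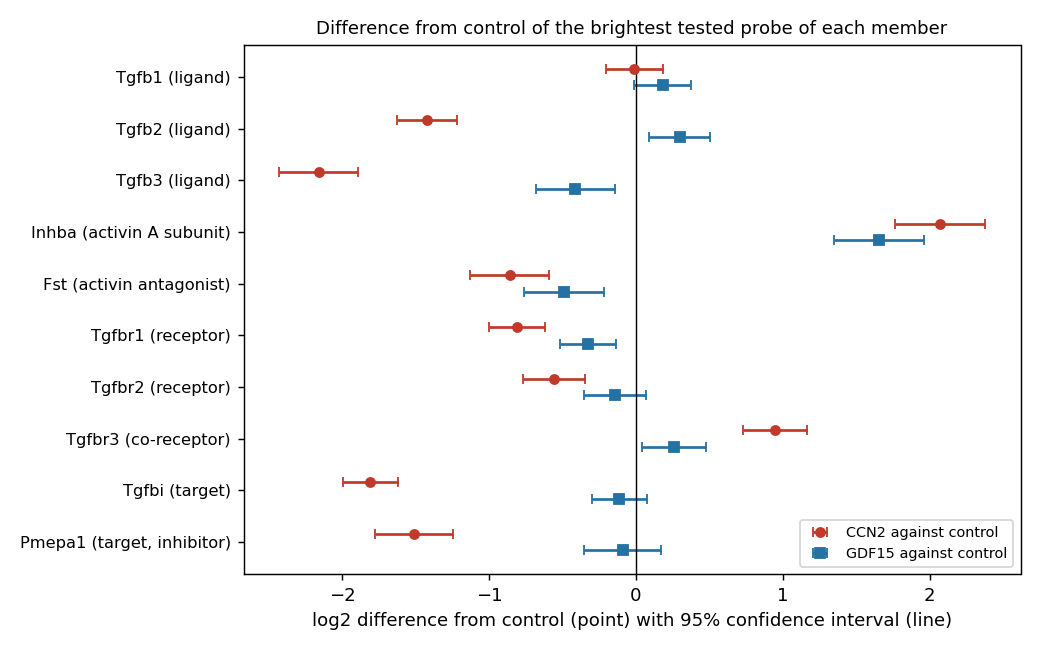
Log2 difference from control of the brightest tested probe of each member after CCN2 (circles) and GDF15 (squares), with 95% confidence intervals from the limma fit, each over 4 against 4 arrays. Inhba lies right of 0 and Fst left of 0 for both treatments, while Tgfbi and Pmepa1 lie below -1 for CCN2 and within 0.2 of 0 for GDF15.

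Both target genes of the group fell after CCN2 and passed no threshold after GDF15. Tgfbi encodes a secreted matrix protein named for its induction by TGF-beta. Its signal was 354, 352, 357 and 356 on the CCN2 arrays, 1165, 1372, 1385 and 1294 on the GDF15 arrays and 1303, 1623, 1301 and 1390.1 on the control arrays. The CCN2 arrays lay within a few units of each other and far below the rest, and the GDF15 arrays overlapped the control arrays. Tgfbi was 3.50-fold lower after CCN2 (log2 difference -1.81, SE 0.088, adjusted p = 1.78e-11), and a dimmer probe was at -1.75 (SE 0.095, adjusted p = 7.73e-11). After GDF15 these probes were at -0.11 (95% interval -0.30 to 0.07, adjusted p = 0.434) and -0.18 (-0.38 to 0.02, adjusted p = 0.211).

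Pmepa1 encodes a membrane protein that TGF-beta induces and that holds back SMAD2 and SMAD3 in return. Its signal was 89.0, 79.2, 91.8 and 88.7 on the CCN2 arrays, 178, 207, 210.4 and 342 on the GDF15 arrays and 244, 278, 252 and 231 on the control arrays. The CCN2 arrays were lowest without overlap, and GDF15 array 12 stood above all control arrays while the other GDF15 arrays were below them. Pmepa1 was 2.85-fold lower after CCN2 (log2 difference -1.51, SE 0.13, adjusted p = 1.905e-08).

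The dimmer Pmepa1 probe was detected on 3 of 4 CCN2 arrays and was at -0.79 (SE 0.13, adjusted p = 4.54e-05). After GDF15 the brighter probe was at -0.09 (95% interval -0.36 to 0.17, adjusted p = 0.684), and without array 12 it was at -0.24 (adjusted p = 0.0780). GDF15 against CCN2 was at 1.70 (SE 0.088, adjusted p = 7.64e-11) for Tgfbi and at 1.42 (SE 0.13, adjusted p = 6.97e-08) for Pmepa1.

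**Figure D4:**
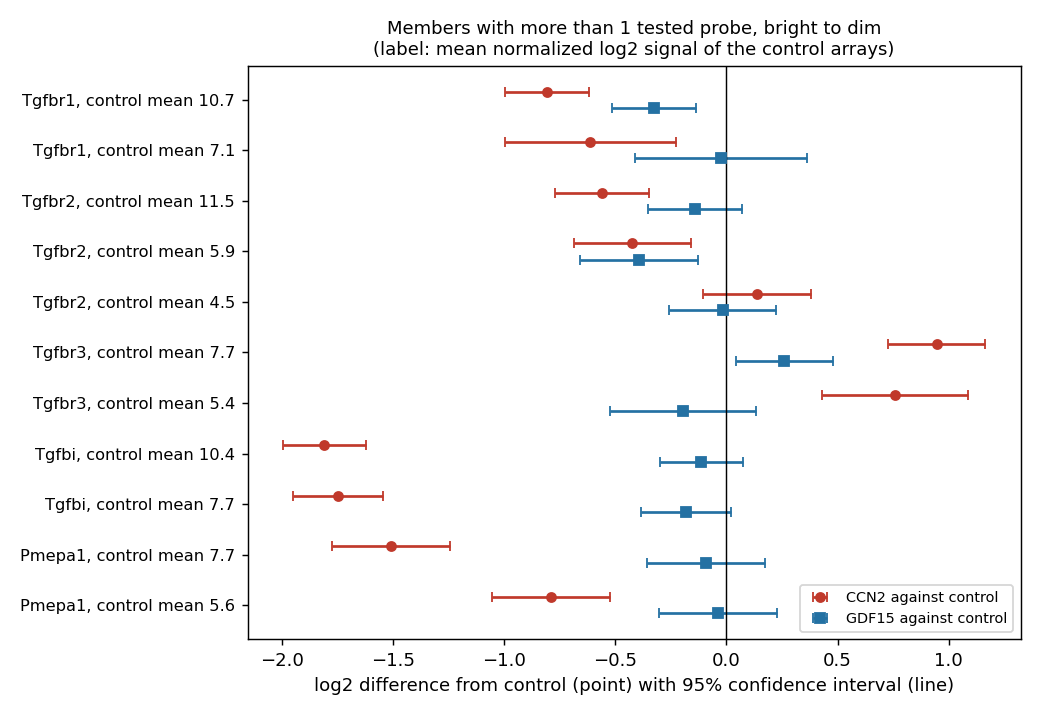
Log2 difference from control with its 95% confidence interval for each tested probe of the 5 members that have more than 1, after CCN2 (circles) and GDF15 (squares), each over 4 against 4 arrays. Row labels give the mean normalized log2 signal on the control arrays. The dimmest Tgfbr2 probe, with a control mean of 4.5, is the 1 probe whose CCN2 point lies on the other side of 0 from its gene's brighter probes.

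GDF15 against CCN2 over all members gave 7 higher, 2 lower (Tgfbr3 and Inhba) and 1, Tgfb1, that missed the threshold (0.19, SE 0.091, adjusted p = 0.104), against 45.9% of genes changed, 23.8% higher and 22% lower. The groups did not overlap for 8 members, against 41.8% of genes, and 4 members passed 2-fold, against 8.85%. The median log2 difference of the members was 0.45, against 0.0038 over all genes.

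The other genes of the pathway were taken from 7 lists with 114 genes, of which 87 were tested. After CCN2, 24 of the 87 rose and 40 fell, and after GDF15, 20 rose and 15 fell. Over all genes 55.9% changed after CCN2 (25.7% upward, 30.2% downward) and 22.4% after GDF15 (9.76% upward, 12.7% downward). The counts of each list below are to be read beside these shares, which some lists are near. With median scaling the counts were 20 and 43 for CCN2, and 18 and 16 for GDF15. The median log2 difference of the 87 genes was -0.15 after CCN2 and 0.02 after GDF15, against -0.02 and -0.02 over all genes.

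Few other ligand genes were measurable, and 6 of them, Mstn, Gdf11, Nodal, Lefty2, Inhbc and Inhbe, were detected on no array. Gdf1, whose transcript also encodes the ceramide synthase Cers1, fell by 1.90 on the log2 scale after CCN2 (SE 0.11, adjusted p = 3.05e-10) and was at -0.29 after GDF15 (SE 0.11, adjusted p = 0.0947; with median scaling -0.37, adjusted p = 0.0209). Lefty1, an inhibitor of Nodal, rose by 0.42 after CCN2 (SE 0.10, adjusted p = 0.00199), which was lost with median scaling (0.14, adjusted p = 0.377), and the inhibin alpha gene Inha, detected on all 4 CCN2 arrays but on 2 GDF15 and 2 control arrays, by 0.39 (SE 0.11, adjusted p = 0.00532).

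Genes that store or free latent TGF-beta split, with 5 higher and 7 lower of 18 after CCN2, and 5 higher and 4 lower after GDF15. Mmp9, a gelatinase, rose by 5.09 after CCN2 (SE 0.13, adjusted p = 3.76e-15) and by 3.09 after GDF15 (SE 0.13, adjusted p = 3.75e-11), and the integrin subunit gene Itgav rose by 2.11 after CCN2 (SE 0.11, adjusted p = 2.36e-11). The proprotein convertase gene Pcsk6 fell by 2.31 after CCN2 (SE 0.087, adjusted p = 5.23e-13) and by 0.52 after GDF15 (SE 0.087, adjusted p = 0.000321). After GDF15 Thbs1, which encodes thrombospondin 1, an activator of latent TGF-beta, rose by 0.96 (SE 0.085, adjusted p = 2.87e-07) and the latent TGF-beta binding protein gene Ltbp4 fell by 0.77 (SE 0.083, adjusted p = 3.00e-06). Both moved further in the same direction after CCN2, Thbs1 to 1.62 (SE 0.085, adjusted p = 4.19e-11) and Ltbp4 to -1.94 (SE 0.083, adjusted p = 3.03e-12).

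Of 8 other receptor and co-receptor genes, 2 rose and 5 fell after CCN2, and 1 fell after GDF15. Acvr1b, the type I receptor kinase of activin, rose by 1.40 after CCN2 (SE 0.098, adjusted p = 2.03e-09), and was at 0.28 after GDF15 (SE 0.098, adjusted p = 0.0557), with signals of 205, 165, 225 and 178 on the CCN2 arrays, 99.4, 130.7, 107 and 124 on the GDF15 arrays and 96.3, 105, 107 and 101 on the control arrays. The type II receptor genes of activin went the other way after CCN2, Acvr2b at -0.63 (SE 0.099, adjusted p = 4.19e-05) and Acvr2a at -0.39 (SE 0.13, adjusted p = 0.0188). Acvr2a was dim and detected on 3 of 4 CCN2 arrays. Its signals of 43.3 to 50.5 there overlapped those of 45.0 to 66.3 on the control arrays. Nrp1, a co-receptor of several growth factors, fell by 1.41 after CCN2 (SE 0.10, adjusted p = 4.15e-09) and by 0.46 after GDF15 (SE 0.10, adjusted p = 0.00399). Cd109, a membrane inhibitor of TGF-beta signals that was detected on 2 of 4 CCN2 arrays, fell by 1.12 after CCN2 (SE 0.12, adjusted p = 5.41e-07).

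Of 7 extracellular binders, 1 rose and 3 fell after CCN2, and 1 rose and 2 fell after GDF15. Fstl3, a second follistatin-type activin antagonist, rose where Fst fell: by 1.09 after CCN2 (SE 0.092, adjusted p = 2.59e-08) and by 0.50 after GDF15 (SE 0.092, adjusted p = 0.000830). Its signal was 129, 124, 116 and 110.0 on the CCN2 arrays, 94.9, 102, 95.4 and 103 on the GDF15 arrays and 71.2, 84.7, 75.9 and 85.7 on the control arrays, with no overlap between treated and control arrays. Fmod, the TGF-beta-binding proteoglycan fibromodulin, fell by 2.58 after CCN2 (SE 0.16, adjusted p = 3.80e-10) and by 0.88 after GDF15 (SE 0.16, adjusted p = 0.000626). Wfikkn2, which binds myostatin and GDF11, fell by 0.69 (SE 0.12, adjusted p = 0.000120) and by 0.37 (SE 0.12, adjusted p = 0.0404) in the same comparisons.

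Whether the genes of the SMADs that TGF-beta and activin receptors activate passed the threshold after CCN2 depended on the scaling. Smad2 was at -0.15 (SE 0.090, adjusted p = 0.189) and Smad3 at -0.24 (SE 0.12, adjusted p = 0.116), but with median scaling they were at -0.43 (adjusted p = 0.00261) and -0.45 (adjusted p = 0.00393). Of 9 genes for SMADs and their cofactors, 1 rose and 3 fell after CCN2, but none rose and 6 fell with median scaling, and 1 fell after GDF15. Sptbn1, a spectrin that binds SMADs, fell by 1.01 after CCN2 (SE 0.12, adjusted p = 1.59e-06) and by 0.44 after GDF15 (SE 0.12, adjusted p = 0.0156), Tgfbrap1, a protein that binds the receptors, fell by 0.79 after CCN2 (SE 0.10, adjusted p = 5.30e-06), and the endosomal adaptor gene Hgs rose by 0.40 after CCN2 (SE 0.11, adjusted p = 0.00513), a call lost with median scaling (0.12, adjusted p = 0.390).

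Of 9 intracellular inhibitors, 4 rose and 2 fell after CCN2 and 3 rose after GDF15, and Smad7 was detected on no array. The SMAD co-repressor gene Tgif1 rose by 1.53 after CCN2 (SE 0.11, adjusted p = 2.52e-09) and by 0.33 after GDF15 (SE 0.11, adjusted p = 0.0410), the second of which was lost with median scaling (0.27, adjusted p = 0.168). The ubiquitin ligase gene Nedd4l rose by 1.27 after CCN2 (SE 0.096, adjusted p = 5.30e-09) and by 0.47 after GDF15 (SE 0.096, adjusted p = 0.00195). Ski, another SMAD co-repressor, fell by 1.24 after CCN2 (SE 0.088, adjusted p = 2.57e-09). Its relative Skil rose by 0.82 after CCN2 (SE 0.090, adjusted p = 6.04e-07) and by 0.50 after GDF15 (SE 0.090, adjusted p = 0.000656).

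Of 33 other target genes, 9 rose and 19 fell after CCN2, and 11 rose and 7 fell after GDF15. The 3 largest changes of these after CCN2 were falls. Timp3, an inhibitor of matrix proteases, fell by 5.23 (SE 0.096, adjusted p = 9.19e-17). Comp, a matrix gene, fell by 4.86 (SE 0.094, adjusted p = 1.55e-16), and the elastin gene Eln fell by 4.43 (SE 0.10, adjusted p = 1.24e-15). After GDF15 Cthrc1 fell by 2.11 (SE 0.12, adjusted p = 1.04e-09), Comp fell by 2.08 (SE 0.094, adjusted p = 1.02e-10) and Timp1, a protease inhibitor, rose by 1.97 (SE 0.11, adjusted p = 9.29e-10). Cthrc1 and Timp1 moved in the same directions after CCN2. With median scaling they were at -2.35 (adjusted p = 2.58e-12) and 2.82 (adjusted p = 7.20e-15) in that comparison.

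Some targets, among them Ccn2 and Tagln, were placed on opposite sides of control by the 2 treatments, and these were picked out after their values were seen. With median scaling Ccn4 was on opposite sides too, at -0.37 after CCN2 (adjusted p = 0.00748) and 1.31 after GDF15 (adjusted p = 8.45e-09). Acta2 and Col1a1 are given beside them as known targets. Ccn2, a standard TGF-beta target, was at -2.07 after CCN2 (SE 0.085) and 0.32 after GDF15 (SE 0.085, adjusted p = 0.0132), with GDF15 against CCN2 at 2.38 (SE 0.085, adjusted p = 6.09e-13). Tagln, a marker of contractile cells, was at -1.22 (SE 0.088) after CCN2 and 0.52 (SE 0.088, adjusted p = 0.000369) after GDF15, with GDF15 against CCN2 at 1.74 (SE 0.088, adjusted p = 5.50e-11). The smooth muscle actin gene Acta2 was at -1.43 (SE 0.085) after CCN2 and 0.04 (SE 0.085, adjusted p = 0.808) after GDF15, and Col1a1 passed no threshold in either (-0.14 and 0.02).

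**Figure D5:**
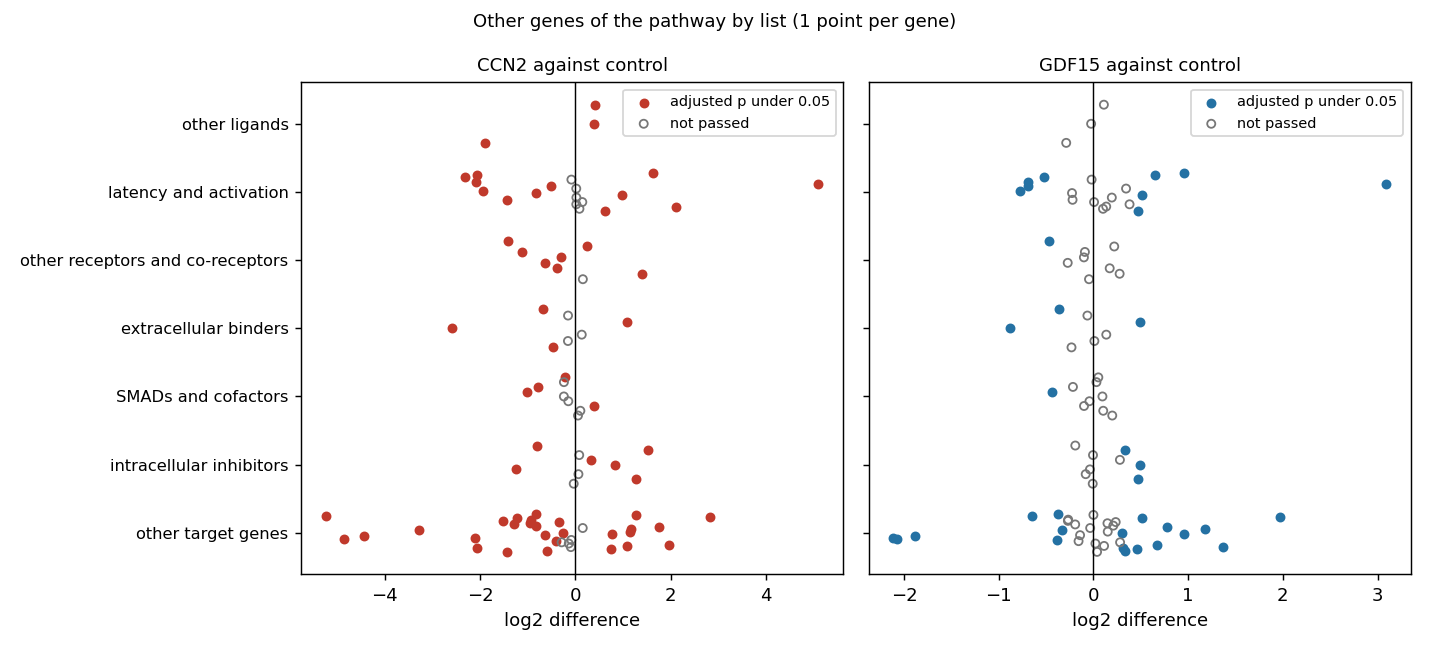
Log2 difference from control of 87 other pathway genes in 7 lists after CCN2 (left) and GDF15 (right), 1 point per gene, filled where the adjusted p was under 0.05, each over 4 against 4 arrays. The 2 panels have different horizontal scales. Filled points lie on both sides of 0 for CCN2 in every list.

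The genes whose pattern over the 12 arrays was most like that of each changed member were looked up among 10740 genes, by the root mean square difference between log2 values set relative to each gene's control mean. For Inhba the nearest were Cp and Usp18 (0.24 and 0.25 log2 units), for Tgfb2 Ptprb and Gldc (0.13 and 0.14), for Tgfb3 Arhgap25 and Izumo4 (0.14 and 0.15), and for Fst Gas2l3 and Lrsam1 (0.14 and 0.14). For Tgfbr1 they were Popdc2 and Nicn1 (0.075 and 0.085), for Tgfbr2 Map3k1 and Ulk2 (0.080 and 0.084) and for Tgfbr3 Chac1 and Gmppb (0.11 and 0.12). For Tgfbi they were Arl11 and Cd84 (0.12 and 0.12) and for Pmepa1 Garre1 and Pawr (0.15 and 0.17). Cp, for example, was at 2.23 after CCN2 (SE 0.11) and 1.63 after GDF15 (SE 0.11), beside 2.07 and 1.66 for Inhba. The distances are not a ranking of the members.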

How the data were processed

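Each probe has, per the file headers, an intensity and a detection p-value for every array in the deposited non-normalized table. The submitters' processing notes name GenomeStudio 2010.1. None of these intensities is below 0 and the medians differ between arrays, so they carry no background subtraction or scaling. The authors' own processed intensities, also deposited, keep the ranks of the first table on all 12 arrays. The tool that made it is not given in the sources used here. The intensities were corrected and quantile-normalized with neqc (offset 16) and fitted with lmFit and eBayes in limma 3.58.1 under R 4.3.3, as 1 group-means model over 12 arrays (9 residual degrees of freedom, two-sided). The tested probes had a detection p-value below 0.05 on 4 or more arrays, and Benjamini-Hochberg adjustment ran over all 20445. The fit was tested on simulated log2 values with few changed probes. That test covered neither the normalization nor changes as broad as those after CCN2. Gene symbols came from the platform annotation, matched by gene ID to RefSeq (34807 of 34885 probes with 1 symbol, and 18 probes with several and 10378 with none were not named). From each pathway list the 3 largest called changes per treatment were named, or the largest 1 where none passed. The members and lists were chosen with earlier results of these data known. List genes without a named probe, among them Smad4 and Inhbb, were not analysed here. Alternatives varied the scaling, background correction, offset, detection filter, variance model, groups fitted, probe summary and arrays. The number of arrays limits the precision.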

Additional observations from a re-analysis of the deposited data

Results flagged for a closer look

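Of 48 sets of 4 arrays checked (16 tested member probes in 3 groups), 3 held an array that stood apart by Dixon's criterion at 95%, where chance gives about 5% of sets. GDF15 array 12 was the highest for the brightest Tgfbr2 probe (gap over range 0.839, at 11.59 against 11.31 to 11.36 on the other 3 GDF15 arrays) and for the brightest Pmepa1 probe (0.882, at 8.08 against 7.44 to 7.51). Control array 3 was the lowest for the dimmer Tgfbr2 probe (0.944, at 5.43 against 6.05 to 6.09 on the other 3 control arrays), on the log2 scale.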

How the results depend on the processing

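Each member's difference was recomputed under 18 alternatives per comparison, 540 values in all, of which 506 kept their direction and their side of the threshold, 28 lost the call, 2 gained it and 4 changed sign. The sign changes were all Tgfb1 after CCN2 with 1 array left out (control 1 or 4, CCN2 7 or 8; all arrays left out in turn gave -0.062 to 0.030, against -0.01). After GDF15 the count of members higher was 1 in place of 2 with median scaling (1) and with no detection filter (1), and 1 to 2 with an array left out. For GDF15 against CCN2 the count lower was 1 in place of 2 under the same settings (1 and 1), and 1 to 2 with an array left out. The counts after CCN2 were 2 higher throughout and 7 to 8 lower. The cause of these changes was not tested. Under median scaling the share of called probes that rose was 26.7% against 48.6% for CCN2, 34.5% against 46.7% for GDF15, and 72.1% against 49.9% for GDF15 against CCN2, and the median of all tested probes shifted by -0.17, -0.05 and 0.12. A term for odd or even array number, added after the data were seen, changed no member's call. No paired analysis was possible because array titles run from 1 to 12 with none repeated between groups. Dim probes, such as the dimmest of Tgfbr2, lie near background and can show only part of a change.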
